A study of Mus musculus with 6 samples.

Results

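The interferon regulatory factors (IRFs) are transcription factors that start and shape the interferon response. The genes described here are Irf1, Irf2, Irf3, Irf4, Irf5, Irf7, Irf8 and Irf9, chosen by name, with every probe set that the array annotation assigns to 1 of these symbols. They make up 8 of the 18193 genes measured and have 14 probe sets. Expression was measured in CT26 cells, a colon carcinoma line of BALB/c mice, on 6 arrays. The 3 control samples are CT26 cells that received pU6-m3, a plasmid, without an insert. The 3 shSep15 samples received pU6-m3 carrying a hairpin that targets Sep15, a selenoprotein of the endoplasmic reticulum. The question was which transcripts differ once Sep15 is knocked down, and the design rests on 1 hairpin construct. Clonal or pooled origin of the cells, and whether the samples came from separate cultures, is not given in the sources used here, so p-values measure only the spread between these samples.

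IRFs share a DNA-binding domain rich in tryptophan that reads repeats of the letters GAAA, the core of the interferon-stimulated response element (ISRE). Irf3 and Irf7 are held in the cytoplasm until kinases downstream of viral nucleic acid sensors phosphorylate them, after which they switch on type I interferon genes. Irf9 binds the phosphorylated STAT proteins downstream of the interferon receptor to form the complex ISGF3, which drives interferon-stimulated genes, Irf7 among them. Irf1 is an activator induced by interferon gamma, and Irf2 binds the same sites and is known as its antagonist. Irf4, Irf5 and Irf8 are best known from lymphoid and myeloid cells.

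Values are log2 RMA values, and a log2 difference is shSep15 minus control. The array medians lay between 5.83 and 5.87. Selenof, the current symbol of Sep15, read 12.41, 12.44 and 12.35 on the control arrays and 9.34, 9.59 and 9.50 on the shSep15 arrays at its brighter probe set. A background level of 6.02 was taken from 80 probe sets of olfactory and vomeronasal receptor genes, as the 95th percentile of their mean values. "Near background" below means that neither group mean reached that level. Of 13 epithelial and colon markers, 8 were near background, among them Cdh1, Vil1, Cdx1, Cdx2 and Muc2, while Krt20, Epcam, Lgals4, Krt18 and Krt8 were above it in control cells (means 8.28, 7.59, 6.85, 6.65 and 6.07). On this list 0 genes were called higher, also at an unadjusted p under 0.05, and 3 lower (limma), 23.1% against 12.8% of all genes: Krt18 (-2.16), Krt20 (-2.13) and Lgals4 (-1.0). Among the 5 above background the share called lower was 60%, against 20.0% of all genes above background. These differences in share were not tested.

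All 8 genes were found among the RefSeq promoters of build GRCm38.p6, with 11 start sites in all. The 250 bases before each start site were searched on both strands for the core of the ISRE (GAAA, any 2 bases, then GAAA again) and for TTCNNNGAA, the gamma-activated site (GAS) bound by STAT dimers. The matches do not overlap in any sequence shown. The promoters below are those of the genes that the results turn on: Irf2, the only member past the threshold; Irf7 and Irf9, which differed most between arrays; and Irf1, the counterpart of Irf2. Capitals mark a match to either motif.
Irf1 (chr11:53769764-53770013, plus strand): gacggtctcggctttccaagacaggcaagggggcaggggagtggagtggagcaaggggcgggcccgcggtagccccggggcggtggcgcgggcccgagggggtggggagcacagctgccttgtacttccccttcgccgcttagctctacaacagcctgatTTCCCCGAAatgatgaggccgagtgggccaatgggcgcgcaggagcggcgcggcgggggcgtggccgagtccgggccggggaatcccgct
Irf2 (chr8:46739495-46739744, plus strand): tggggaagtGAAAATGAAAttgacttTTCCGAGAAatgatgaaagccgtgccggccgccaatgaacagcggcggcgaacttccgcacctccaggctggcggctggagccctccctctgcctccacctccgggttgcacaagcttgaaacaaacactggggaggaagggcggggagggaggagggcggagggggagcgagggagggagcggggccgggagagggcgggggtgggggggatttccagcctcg
Irf7 (chr7:141266425-141266674, minus strand): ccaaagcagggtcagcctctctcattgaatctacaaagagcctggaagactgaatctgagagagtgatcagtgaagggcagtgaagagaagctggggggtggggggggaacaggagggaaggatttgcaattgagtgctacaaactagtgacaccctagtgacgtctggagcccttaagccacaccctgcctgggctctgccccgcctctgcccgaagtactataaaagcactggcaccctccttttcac
Irf9 (chr14:55603735-55603984, plus strand): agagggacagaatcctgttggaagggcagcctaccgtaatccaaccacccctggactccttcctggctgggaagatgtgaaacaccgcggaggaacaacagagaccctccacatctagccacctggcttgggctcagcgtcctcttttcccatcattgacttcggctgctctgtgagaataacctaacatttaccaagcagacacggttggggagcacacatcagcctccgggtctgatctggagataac
Irf2 held the ISRE core, GAAAATGAAA, starting 241 bases before its start site, and a GAS match, TTCCGAGAA, at 224 bases. It was the 1 start site of 11 with an ISRE match, and 2.98% of 32841 promoter windows of the same length have one. A GAS match was present at 3 of the 11 start sites, those of Irf2, of Irf1 (TTCCCCGAA, at 90 bases) and the first of Irf8, against 7.02% of all windows. The second start sites of Irf1 and Irf8 had none. The windows of Irf7 and of Irf9 held neither string of letters, which says nothing of sites outside them; the second start site of Irf9, not shown, had no match either. A match is a description of letters, not a measured binding site.

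Knockdown of Sep15 was accompanied by a lower level of 1 IRF and by no called rise. Irf2 fell, the other 7 genes did not pass the threshold, and the number called higher was 0 (limma, adjusted p under 0.05 over all probe sets). At an unadjusted p under 0.05 the counts were the same, 0 higher and 1 lower. In the same comparison 19.4% of all probe sets were called, 9.66% lower. Counted by gene, 25.0% were called, 12.2% higher and 12.8% lower, and among genes above background 39.2%. A count of 1 in 8 is therefore no more than the background share. The median log2 difference of the 8 genes was 0.07, against 0.01 over all genes. Irf4 and Irf8 were near background, and 6 members were above it. Because these are bulk RNA samples, fewer cells with a transcript and less transcript per cell cannot be told apart.

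**Figure D1:**
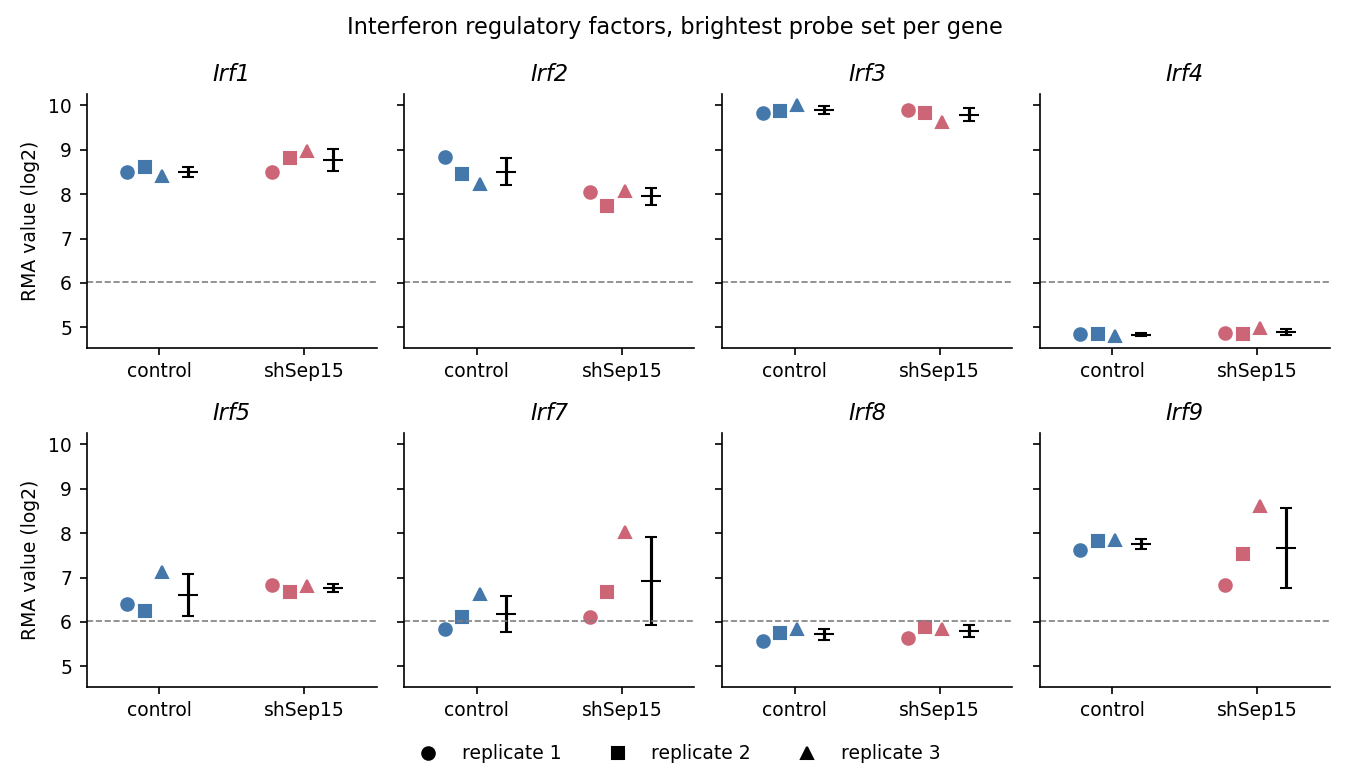
RMA values (log2) of the brightest probe set of each of the 8 genes on the 3 control (blue) and 3 shSep15 (red) arrays; marker shape gives the replicate number, black bars the mean and SD, and the dashed line the background level of 6.02. Every shSep15 array of Irf2 lies below every control array, while the shSep15 arrays of Irf7 and Irf9 spread widely and replicate 3 is the highest in both.

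Irf2 was the member that separated the groups. It read 8.84, 8.46 and 8.23 on the control arrays and 8.04, 7.73 and 8.08 on the shSep15 arrays. The highest shSep15 array was under the lowest control array. Groups that did not overlap were common here, in 55.1% of genes above background, and in 27.4% with shSep15 the lower. The mean fell from 8.51 ± 0.30 (SD, n = 3) to 7.95 ± 0.19 (SD, n = 3), a log2 difference of -0.56 (SE 0.17, 95% interval -0.95 to -0.18, limma adjusted p = 0.0470), which is 0.677 times the control level. Its only probe set carries the suffix _s_at, a kind whose probes can be shared by several transcripts. The call lies close to the threshold: it ended without control 1 (log2 -0.40, limma adjusted p = 0.138), control 2 (0.110), shSep15 1 (0.0918), shSep15 2 (0.171) or shSep15 3 (0.0841), and when arrays were shifted to the same median (0.0541). The log2 difference lay between -0.70 and -0.40 in all 14 alternatives.

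Irf1, the activator that binds the same sites, was not called. It read 8.49, 8.62 and 8.40 on the control arrays and 8.51, 8.82 and 8.98 on the shSep15 arrays. The groups overlapped through shSep15 1, which lay within the control range, while shSep15 2 and 3 lay above it. The log2 difference was 0.26 (SE 0.14, 95% interval -0.05 to 0.58, limma adjusted p = 0.265), so neither no change nor a rise of 0.58 lies outside the interval.

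Irf9, the DNA-binding subunit of ISGF3, had close mean levels in both groups, 7.76 and 7.67, and a wider spread on the shSep15 arrays. It read 7.63, 7.82 and 7.84 on the control arrays, and 6.84, 7.54 and 8.62 on the shSep15 arrays. Thus shSep15 1 and 2 lay below every control array and shSep15 3 above every one. The SD was 0.12 (n = 3) in control and 0.90 (n = 3) in shSep15 cells, the latter ranking 20 among 11131 genes above background, whose median SD in the shSep15 group was 0.11. The log2 difference was -0.09 (SE 0.36, 95% interval -0.91 to 0.73, limma adjusted p = 0.909). Without shSep15 3 it was -0.57 (SE 0.21, limma adjusted p = 0.138), and without shSep15 1 it turned to 0.32 (limma adjusted p = 0.561).

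Irf7, the amplifier of the type I interferon response, was highest on the same array. It read 5.83, 6.10 and 6.62 on the control arrays and 6.10, 6.68 and 8.02 on the shSep15 arrays. The reading on shSep15 3 was 1.34 above the next highest array, whereas shSep15 1 lay within the control range and shSep15 2 just above it. The control mean of 6.18 was close to the background level of 6.02, where RMA values compress differences. The log2 difference was 0.75 (SE 0.42, 95% interval -0.20 to 1.71, limma adjusted p = 0.296) and dropped to 0.21 without shSep15 3 (SE 0.26, limma adjusted p = 0.707). The SD of Irf7 in shSep15 cells, 0.99, ranked 15 among the 11131 genes above background. Its SD in control cells, 0.4, was also wide and ranked 258, where the median over these genes was 0.13.

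Irf3, the partner of Irf7 in virus sensing that is made without prior stimulation, stayed within a narrow range. Its brightest probe set read 9.84, 9.87 and 10.01 on the control arrays and 9.90, 9.84 and 9.62 on the shSep15 arrays. The groups overlapped, with shSep15 3 the lowest array. The log2 difference was -0.11 (SE 0.10, 95% interval -0.35 to 0.12, limma adjusted p = 0.557). Of its 3 other probe sets, the next brightest gave -0.09 and was also lowest on shSep15 3, at 7.61 against 7.90 to 7.98 on the other arrays. Another gave 0.10, and the last was near background. The brightest one carries the suffix _x_at, a kind in which some probes also match other sequences.

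Irf5, a factor of inflammatory cytokine induction in myeloid cells, was read at 6.40, 6.25 and 7.13 in control and 6.84, 6.67 and 6.82 in shSep15 cells at its brighter probe set. Here the control group was the wider, with control 3 above all other arrays and control 1 and 2 below every shSep15 array. With all arrays the groups differed by 0.18 on the log2 scale (SE 0.21, limma adjusted p = 0.659), and by 0.45 without control 3 (limma adjusted p = 0.0417). The other probe set lay near background in both groups, with a log2 difference of 0.17.

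Irf4 and Irf8, which direct lymphoid and myeloid differentiation, gave no reading above background. Irf4 had means of 4.83 and 4.90 at its brighter probe set, and Irf8 had 5.72 and 5.79. Their 4 probe sets had log2 differences between -0.13 and 0.12. Ptprc, the pan-leukocyte antigen CD45, was near background on the same arrays, at 4.01 to 4.61. Other leukocyte markers were not: Cd14, a coreceptor of lipopolysaccharide, read 8.35 to 9.40, and Csf1r, the receptor of macrophage growth factor, read 6.99 to 7.53. Of 16 leukocyte markers measured, 8 were near background, 0 were called higher and 4 lower (Cd68, Cd14, Lyz2 and, near background, Itgam), and at an unadjusted p under 0.05 these counts were 0 and 5 (limma). The share called lower was 25%, against 12.8% of all genes, and above background it was 37.5% against 20.0%. These differences were not tested. The calls of Lyz2 and Itgam ended when single arrays were left out (limma adjusted p up to 0.0610 and 0.0771). The summed linear signal of the list was 1590 to 1812 in control and 1252 to 1398 in shSep15 arrays, and Cd14 (log2 -0.73) and Cd68 (-1.48) were the brightest of the markers that fell. In 10 of the 16 the groups overlapped, in 5 shSep15 was the lower and in 1 the higher. Over all genes, 38.1% had groups that did not overlap. The lower sum does not hold for every gene of the list.

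**Figure D2:**
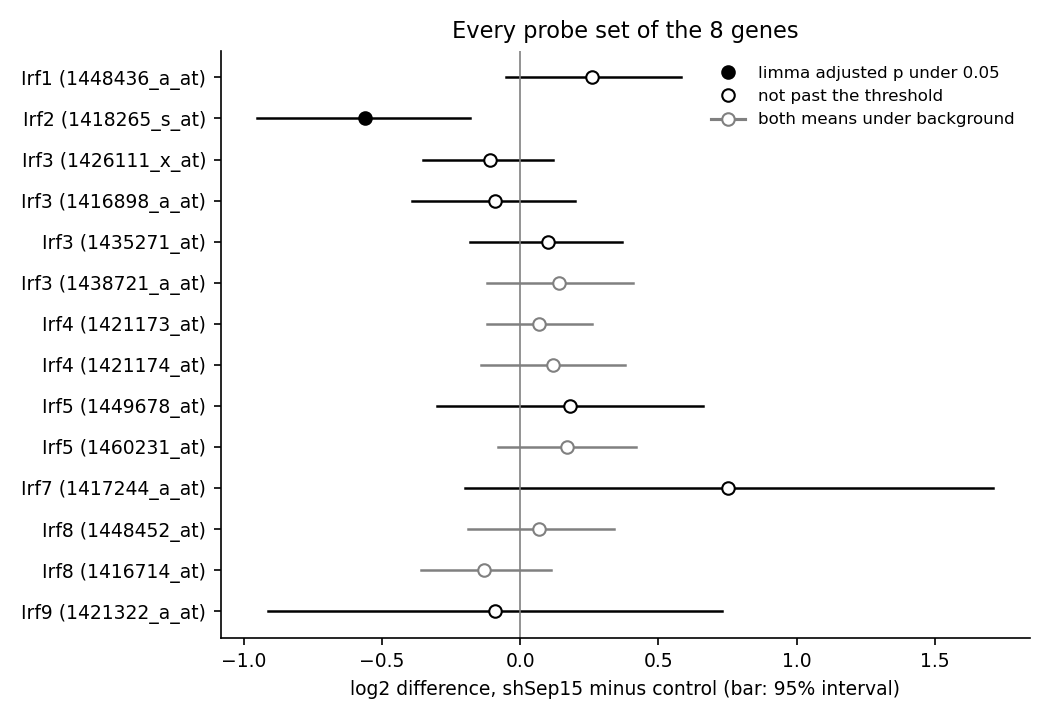
Log2 difference (shSep15 minus control) with its 95% interval for each of the 14 probe sets of the 8 genes; the filled point passed the threshold and grey marks probe sets with both means under background. The interval of Irf2 ends at -0.18, and the intervals of Irf7 and Irf9 are the widest.

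The array shSep15 3 stood apart in many of the ISGF3 targets. A gene was listed if its shSep15 3 value was at least 2-fold above both other shSep15 arrays, a rule chosen after seeing the values. This held for 38 of 11131 genes above background (0.341%), and Irf7 and Irf9 were 2 of them. Of the 38, 16 were on the list of ISGF3 targets, which has 25 members above background. On the list of genes known to depend on Irf1, with 21 above background, were 6, Cxcl10 being on both. Both lists were drawn up by name with earlier results of these data known, so these counts are only a description. At least 2-fold above every other array were 28 genes (0.252%), among them Irf7 but not Irf9, which exceeded the next array by 0.78. The comparison of 1 array with the others has no replicate and no test.

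The genes whose levels followed Irf7 and Irf9 most closely over the 6 arrays were sought among genes above background with at least 0.5 times the member's range. Pearson's r over 6 arrays is a description here, with no test, and all genes share the same libraries and the difference between groups. For Irf7, of 1682 candidates the highest were Ccdc80 (r = 0.983), Rsad2 (0.976), Phf11d (0.952), Oas1a (0.943) and Gbp3 (0.935). For Irf9, of 2567 candidates they were Oas2 (r = 0.993), Ifit1 (0.973), Ifih1 (0.934), Oasl2 (0.931) and Irgm2 (0.916). Every one of these genes was highest on shSep15 3, as were Irf7 and Irf9, and that array weighs heavily in Pearson's r. Spearman's rho, which uses only the order of the arrays, ran from 0.771 (Oas1a) to 1 (Ccdc80) for Irf7. For Irf9 it was 1 for Oas2 and Ifit1, 0.771 for Ifih1 and Oasl2, and 0.6 for Irgm2. Most of them are known as interferon-inducible genes. Oas2, an oligoadenylate synthetase, read 7.83, 7.96 and 8.0 on the control arrays and 7.31, 7.66 and 8.48 on the shSep15 arrays, in the same order as Irf9. Between members, r was 0.764 for Irf7 with Irf9, 0.789 for Irf1 with Irf7 and -0.869 for Irf1 with Irf3.

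**Figure D3:**
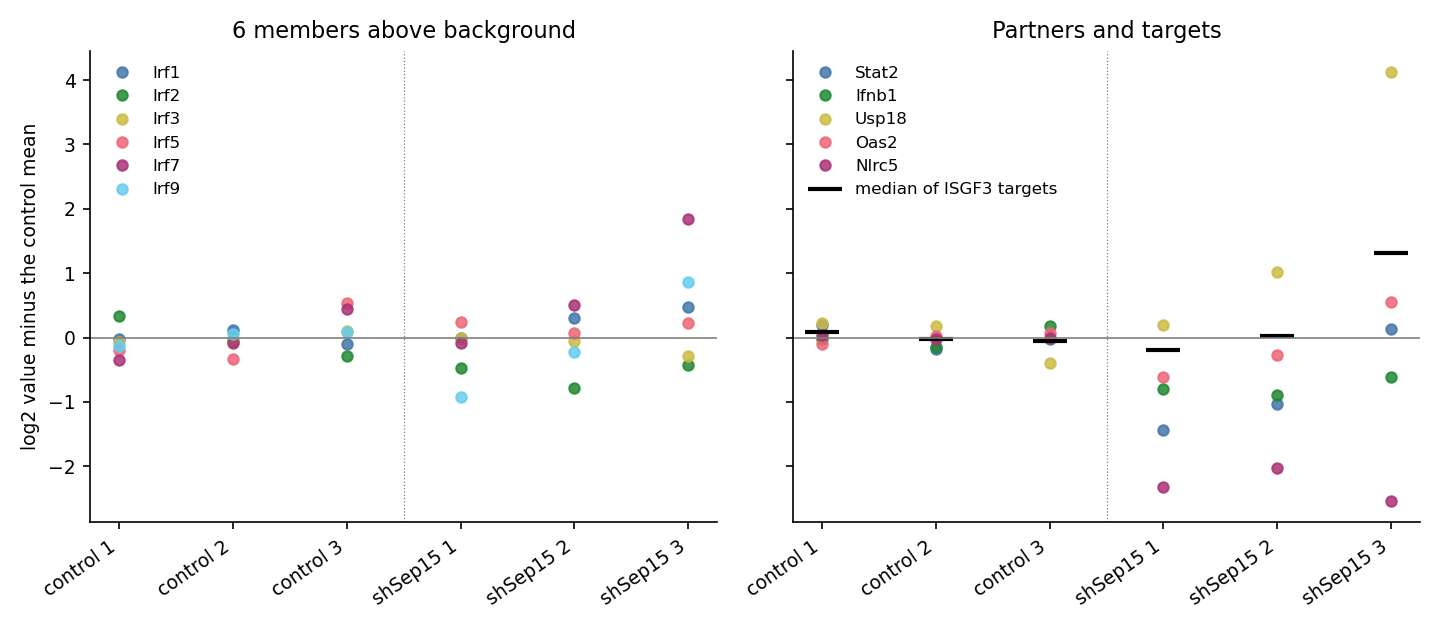
Log2 value minus the control mean on each of the 6 arrays, for the 6 IRFs above background (left) and for Stat2, Ifnb1, Usp18, Oas2 and Nlrc5 with the median of the ISGF3 targets above background (right, black bars). On shSep15 3 Irf7 lies 1.84 and Irf9 0.86 above the control mean, and on shSep15 1 Irf9 lies at -0.92.

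Of 25 sensors, adaptors and kinases that act upstream of the IRFs, 5 fell, 2 rose and 18 did not pass, with a median log2 difference of -0.15, against 0.01 over all genes. All 7 called genes were among the 22 above background, a share of 31.8% (22.7% lower), where 39.2% of all genes above background were called (20.0% lower). Sting1, the adaptor of cytosolic DNA sensing that recruits the kinase of Irf3, read 10.07, 10.01 and 10.15 on the control arrays and 8.64, 8.75 and 8.79 on the shSep15 arrays. The groups were far apart, with a log2 difference of -1.35 (SE 0.09, limma adjusted p = 2.01e-05). Myd88, the adaptor of Toll-like receptors that engages Irf5 and Irf7, fell by 0.88 (SE 0.10, limma adjusted p = 0.000334), and Tbkbp1, which binds the kinase Tbk1, fell by 0.80. A dimmer probe set of Tbkbp1, also above background, was not called lower. Irak2, a kinase of the same receptors, fell by 1.02 (limma adjusted p = 0.0298), a call that ended without control 1, control 2, shSep15 1 or shSep15 2 (limma adjusted p up to 0.117). Tbk1 itself, the kinase of Irf3 and named beyond the rule, had a log2 difference of -0.25 (limma adjusted p = 0.247). The 2 that rose, named after their values were seen, were Ticam1 (0.55), the adaptor of Tlr3, and the DNA sensor Cgas (0.39), whose call held only without control 1 when arrays were left out in turn (limma adjusted p up to 0.120) and ended with the mean of probe sets (0.0547).

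Of 16 interferon, receptor and JAK-STAT genes measured, 3 fell, 0 rose and 13 did not pass, the median was -0.12, and at an unadjusted p under 0.05 there were 6 lower and 0 higher (limma). The share called lower, 18.8%, was near the 12.8% of all genes, and 27.3% stood against 20.0% among genes above background. Ifnb1, the interferon beta gene that Irf3 and Irf7 switch on, read 6.44, 6.32 and 6.64 in control and 5.67, 5.58 and 5.85 in shSep15 cells. All 3 shSep15 arrays were under the background level of 6.02, so the size of its fall of 0.77 (SE 0.13, limma adjusted p = 0.00228) is not exact. Jak2, a kinase of the interferon gamma receptor, fell by 0.83 (SE 0.11, limma adjusted p = 0.000798). The receptor chain Ifngr2 fell by 0.51 (limma adjusted p = 0.0389), a call lost without control 1, control 2, shSep15 1 or shSep15 2 (limma adjusted p up to 0.138), and also with the replicate block or the mean of probe sets (up to 0.178). A dimmer probe set of the gene, also above background, missed the threshold. Stat2, the partner of Irf9 in ISGF3, read 7.39, 7.01 and 7.17 on the control arrays and 5.75, 6.16 and 7.33 on the shSep15 arrays. As with Irf9, shSep15 1 and 2 lay below every control array, while shSep15 3 lay within the control range. Its log2 difference was -0.78 (SE 0.34, limma adjusted p = 0.167) with all arrays and -1.23 without shSep15 3 (limma adjusted p = 0.00373). Stat2 is among the genes listed above for a high value on shSep15 3, a rule chosen after seeing the values. Leaving that array out therefore widens the difference by construction, and the second p-value is only a description. A dimmer probe set of Stat2, also above background, was not called lower with all arrays.

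The ISGF3 targets differed between the shSep15 arrays. Of 28 measured, 4 rose, 0 fell and 24 did not pass, and the median was 0.33; at an unadjusted p under 0.05 the counts were 4 higher and 2 lower. The share called higher, 14.3%, was near the 12.2% of all genes, and 16% stood against 19.2% among genes above background. The 4 were Eif2ak2, the double-stranded RNA kinase (0.90), Herc6 (0.77), Ifit2 (0.60) and Samhd1, a deoxynucleotide hydrolase (0.46). The call of Eif2ak2 ended without control 2 (limma adjusted p = 0.0571). Of the 3 other probe sets of Samhd1 above background, 1 was also called higher. Of the 25 above background, 23 had their highest value on shSep15 3, against 13.5% of all genes above background. The list was drawn up with earlier results of these data known, and this difference was not tested. Taken over these targets, the median distance to the control mean (log2) reached 1.31 on shSep15 3, against 0.03 on shSep15 2 and -0.19 on shSep15 1. Without shSep15 3, 4 were higher and 5 lower, while 19.2% of all genes and 30.5% of those above background were called in either direction without that array, and the list median was -0.09. The 5, named after their values were seen, were Oasl2 (-1.36), Cxcl10 (-1.32), Oasl1 (-1.08), Ifi27 (-0.58) and Ifih1 (-0.54). Of these, Oasl2, Cxcl10, Oasl1 and Ifih1 were among the 38 genes listed above for a high value on shSep15 3. Leaving that array out lowers their log2 difference by construction, so these calls are only a description.

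Usp18, the protease that restrains interferon receptor signalling, read 6.79, 6.74 and 6.17 on the control arrays and 6.76, 7.58 and 10.69 on the shSep15 arrays. It had the largest log2 difference of the ISGF3 targets, 1.78 (SE 0.81, limma adjusted p = 0.189), which did not pass the threshold. Without shSep15 3 it was 0.61 (limma adjusted p = 0.236).

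Of 27 genes known to depend on Irf1, 7 rose, 5 fell and 15 did not pass, with a median of 0.05. All 12 called genes were above background, 57.1% of the 21 there against 39.2% of all such genes, a difference that was not tested. Nlrc5, the transactivator of MHC class I genes, read 8.53, 8.46 and 8.48 in control and 6.17, 6.47 and 5.95 in shSep15 cells. It was low on all 3 shSep15 arrays, also on the array with high Irf7 and Irf9, with a log2 difference of -2.29 (SE 0.14, limma adjusted p = 1.13e-05). The chemokine Ccl5 fell by 1.27 (limma adjusted p = 0.00121). The guanylate-binding proteins Gbp7 and Gbp2 rose by 2.66 and 2.43 (limma adjusted p = 0.00305 and 0.00169) from control means of 5.69 and 5.35, under background, so these sizes are not exact. Both were raised on all 3 shSep15 arrays, Gbp7 to 7.64, 7.72 and 9.70, and both were highest on shSep15 3. Without that array the log2 differences were 1.98 for Gbp7 and 1.9 for Gbp2. The probe set of Gbp2 carries the suffix _x_at, a kind in which some probes also match other sequences. A dimmer probe set of each gene, also above background, was called higher too.

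**Figure D4:**
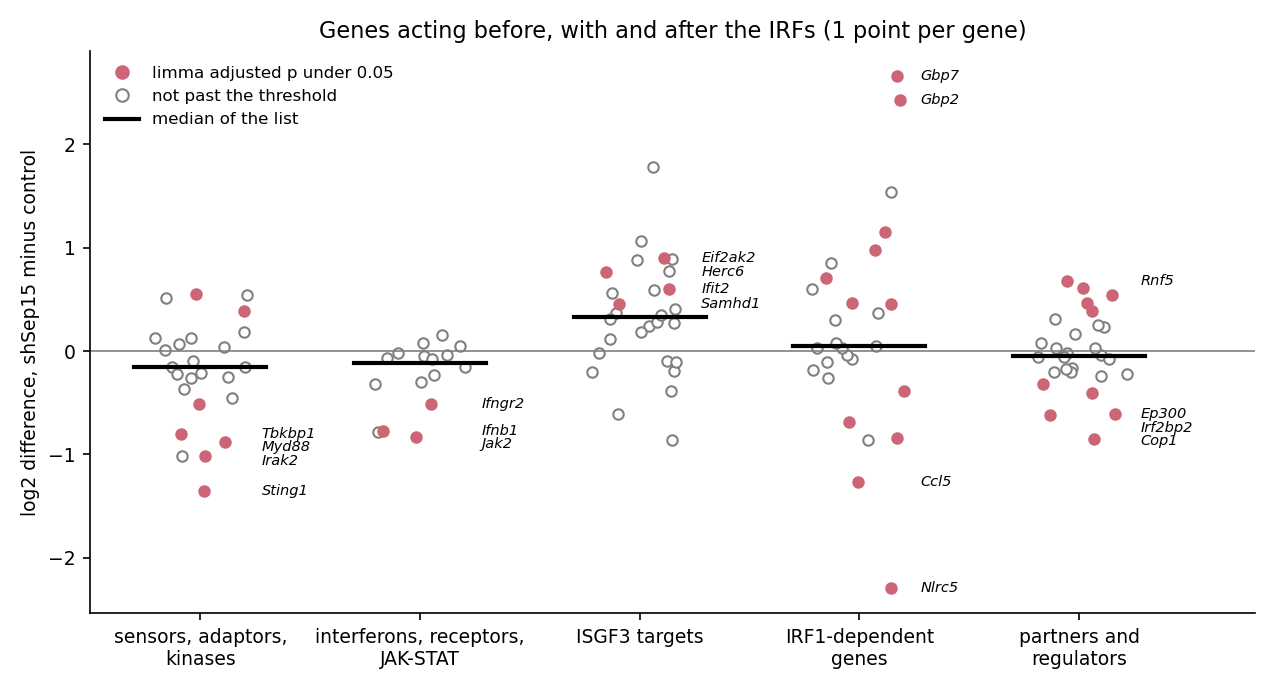
Log2 difference (shSep15 minus control) of each measured gene in 5 lists of genes that act before, with or after the IRFs; red points passed the threshold, open points did not, and black bars are list medians. The medians run from -0.15 for the sensors to 0.33 for the ISGF3 targets, and Cxcl10, Ifih1 and Dhx58 stand in 2 lists each.

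Among 28 partners and regulators of IRF proteins, 5 rose, 5 fell and 18 did not pass, with a median of -0.05. Above background 40% were called, close to the 39.2% of all genes there. Of the corepressors named for their binding to Irf2, Irf2bp2 and Irf2bp1 moved apart. The similarly named Irf2bpl, given here beyond the rule, was not called (-0.22, limma adjusted p = 0.555), and its groups overlapped. Irf2bp2 read 10.97, 10.92 and 10.71 in control and 10.47, 9.95 and 10.32 in shSep15 cells and fell by 0.62 (SE 0.13, limma adjusted p = 0.0104). Of the 3 other probe sets of Irf2bp2 above background, 2 were also called lower. Irf2bp1, named here beyond the rule, read 8.98, 9.25 and 8.88 in control and 9.71, 9.52 and 9.70 in shSep15 cells and rose by 0.61 (SE 0.12, limma adjusted p = 0.00628). The groups of Irf2bp2 and of Irf2bp1 did not overlap, which held for 55.1% of genes above background. The ubiquitin ligase Cop1 fell by 0.85 (limma adjusted p = 0.000134) and the membrane-bound ligase Rnf5 rose by 0.68 (limma adjusted p = 0.0107). The coactivator Ep300 fell by 0.61 (limma adjusted p = 0.0210), a call lost without control 1, shSep15 2 or shSep15 3 (limma adjusted p up to 0.0954). Spi1, the partner of Irf4 and Irf8 in myeloid and B cells, also named beyond the rule, gave a log2 difference of 0.03 (limma adjusted p = 0.909).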

How the data were processed

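RNA of 6 CT26 samples was measured on Affymetrix Mouse430_2 arrays. The deposited log2 values, 1 per probe set and array, were made with RMA, which corrects background, quantile-normalizes and summarizes probes, per the submitters' processing notes; the version is not given in the sources used here. They were used as deposited. RMA compresses differences of dim probe sets, gives no detection call, and would hide a change of total RNA per cell. Of 45101 probe sets, 64 array controls were left out. Current symbols came from matching gene identifiers to the RefSeq table of GRCm38.p6 (34741 of 34945 single-symbol probe sets found). A gene was read at its brightest single-symbol probe set. Levels of different genes were set together only for the summed signal and brightness of the leukocyte markers and for Irf1 minus Irf2.

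All 45037 probe sets were fitted with limma 3.58.1 in R 4.3.3 (lmFit, eBayes with an intensity trend, group as the only term), with two-sided moderated tests and Benjamini-Hochberg adjustment at 0.05. The script was tested on simulated data. Precision is limited by 3 arrays per group. Genes named are all members, Selenof, Stat2, Usp18, Nlrc5, Ifnb1, up to 4 called genes per list with the largest differences, and the 5 genes most like Irf7 and Irf9, the members above background with the widest ranges. Members and lists were chosen with earlier results of these data known. Alternatives changed the moderation, the filter on dim probe sets, the scaling, the choice of probe set, a replicate block and the arrays used.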

Additional observations from a re-analysis of the deposited data

How the results depend on the processing

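Of 110 values of single IRFs under 14 alternatives, 99 kept their direction and their side of the threshold, 6 lost the call (all Irf2), 2 gained one and 3 turned sign. The sign turned for Irf3 (0.01) and Irf8 (-0.03) with the mean of probe sets, and for Irf9, which ran from -0.57 to 0.32 when arrays were left out in turn; none of these was called. Irf4 and Irf8 gave no value with only probe sets above background. The number of IRFs called lower was 0 with arrays shifted to the same median. Leaving out arrays in turn, it was 0 to 1, and the number called higher 0 to 1 (Irf5, without control replicate 3). Over the same omissions, 1 to 2 sensors were called higher, 0 to 5 ISGF3 targets lower, 2 to 5 partners lower and 2 to 4 leukocyte markers lower; with the mean of probe sets 1 sensor was called higher. The causes were not tested. Dim probe sets limit Irf4, Irf7 and Irf8.

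The replicate numbers are shared by the groups, but same-numbered arrays deviated together only for number 1 (r = 0.345), not for 2 and 3 (r = -0.167 and -0.0278, across 11131 genes), so the numbers were not taken to pair the samples. Not every array correlated best with its own number. With the replicate block, 1 IRF was called higher, Irf7 (0.75, limma adjusted p = 0.0341; 0.0341 to 0.707 over its alternatives).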

Other observations

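The distance between Irf1 and Irf2, which bind the same sites, was looked at after their values were seen and was not tested. The log2 value of Irf1 minus that of Irf2 was -0.35, 0.16 and 0.17 on the control arrays and 0.47, 1.08 and 0.90 on the shSep15 arrays. All 3 shSep15 arrays lay above all 3 control arrays, and the means differed by 0.82. Irf2 alone already separated the groups, and how often pairs of other genes do so was not counted. Each probe set has its own binding strength, so the sign of a single value carries no meaning, only the shift between groups.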
